A study of Homo sapiens with 9 samples.

Results

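The genes described here make UDP-N-acetylglucosamine (UDP-GlcNAc), an activated sugar, or encode subunits of oligosaccharyltransferase, the enzyme of the endoplasmic reticulum (ER) that puts N-glycans on new proteins. They were listed by name as GFPT1, PGM3, UAP1, STT3A, RPN1, RPN2, DDOST and DAD1. Members were the probe sets that the array annotation gives to 1 of these 8 genes and to no other gene. This rule found 11 of the 22215 probe sets of the deposited table and 7 of its 12165 genes, and PGM3 was not analysed here. The rule itself uses names, but the genes were proposed with earlier results of these data known, so that their counts below describe them and are no independent evidence.

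LNCaP, an established line from human prostate cancer, keeps features of secretory prostate epithelium and responds to androgen. All 9 cultures were kept for 2 days in medium whose serum had been stripped of steroids with charcoal, and their total RNA was then profiled on Affymetrix arrays. Vehicle cultures received ethanol and DMSO, androgen cultures 1 nM of the synthetic androgen R1881 with DMSO, and the androgen plus celastrol cultures 1 nM R1881 with 1.25 µM of the plant triterpenoid celastrol. Each group has 3 arrays, called biological replicates in the labels without word on how the cultures were separated, so that p-values measure the spread between these arrays. The treatment time is 24 h for the vehicle and the celastrol arrays. For the androgen arrays the titles say 6 h and the descriptions and protocol 24 h, a conflict that these data do not settle. If 6 h is right, the comparisons of the androgen arrays with either other group also differ in treatment time, and agent and time cannot be told apart in them; "celastrol step" below names the comparison of androgen plus celastrol with androgen alone, and "androgen step" that of androgen with vehicle, with this limit. No culture received celastrol without androgen. It is 1 cell line on plastic, and in bulk RNA fewer expressing cells and less RNA per cell cannot be told apart.

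UDP-GlcNAc is built from fructose 6-phosphate in the hexosamine pathway. GFPT1 adds an amino group from glutamine and is the rate-limiting step, PGM3 moves the phosphate, and UAP1 joins the sugar phosphate to UTP. The ER then builds a branched glycan on the lipid dolichol, starting with GlcNAc from UDP-GlcNAc, and oligosaccharyltransferase transfers it to asparagine residues. STT3A is the catalytic subunit of the form of the enzyme that works beside the protein-conducting channel. RPN1 and RPN2 (the ribophorins), DDOST and DAD1 are non-catalytic subunits that this form shares with the STT3B form. Prostate epithelium secretes large amounts of N-glycosylated proteins, prostate-specific antigen among them.

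The treatments showed in known responders. The kallikrein KLK2 was 4.98 ± 0.26 higher in androgen than in vehicle arrays, and heme oxygenase HMOX1 was 6.27 ± 0.26 higher with celastrol than with androgen alone (log2 difference ± standard error of the limma fit). The summed intensity of 7 of 9 listed luminal markers was 27200 to 28200 in vehicle, 50300 to 53700 in androgen and 37100 to 40500 in androgen plus celastrol arrays. The lowest group mean was 195.2, of the androgen-responsive KLK2 in vehicle. Not all 7 moved with the sum. KLK3, KLK2, TMPRSS2, KRT8 and KRT18 had higher means with androgen than in vehicle. FOLH1 went from 15350 in vehicle to 10790 with androgen and HOXB13 from 1909 to 1419. The summed intensity of 2 basal markers was 57.1 to 123 and that of 3 leukocyte markers 104 to 131 on any array. The summed intensity of 5 stroma markers fell within 373 to 463 in vehicle, 316 to 341 in androgen and 241 to 320 in androgen plus celastrol arrays, and of 3 endothelium markers within 167 to 233, 101 to 130 and 95.2 to 145; the part of these dim signals in the results below was not tested. Median intensity was 72.2 to 80.2 on the 9 arrays. Vehicle array 3 stood apart, with a standard deviation of its deviations from the group mean of 0.312 on the log2 scale against at most 0.209 on the others. Some of the differences from vehicle that it moves are given without it too, but not all of them.

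The promoters of 4 genes are shown because their genes stand for 3 of the patterns of calls described below. UAP1 was higher with androgen and not called between androgen and celastrol. GFPT1 was higher in both steps. DDOST and DAD1 were called in the celastrol step and not in the androgen step. The 3 patterns do not sort all members. RPN1 had the calls of UAP1 though its celastrol arrays lay above its androgen arrays without overlap, and the brightest RPN2 probe set was called in neither step. Each promoter is the 250 bases before the RefSeq start, on the gene's strand, from GRCh38.p14. Capitals mark CCAAT on either strand (read as ATTGG where it lies on the other strand), a box bound by NF-Y.
UAP1 chr1:162561281-162561530, plus strand: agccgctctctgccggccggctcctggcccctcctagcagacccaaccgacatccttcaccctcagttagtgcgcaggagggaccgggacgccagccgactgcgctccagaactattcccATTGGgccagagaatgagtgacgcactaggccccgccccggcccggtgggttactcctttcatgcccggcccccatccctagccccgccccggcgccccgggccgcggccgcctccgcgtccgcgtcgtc
GFPT1 chr2:69387228-69387477, minus strand: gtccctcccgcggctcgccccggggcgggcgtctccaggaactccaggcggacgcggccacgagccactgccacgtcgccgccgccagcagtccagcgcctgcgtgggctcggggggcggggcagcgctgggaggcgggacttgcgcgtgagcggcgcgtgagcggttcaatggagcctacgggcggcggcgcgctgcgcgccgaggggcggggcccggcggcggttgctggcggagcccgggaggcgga
DDOST chr1:20661370-20661619, minus strand: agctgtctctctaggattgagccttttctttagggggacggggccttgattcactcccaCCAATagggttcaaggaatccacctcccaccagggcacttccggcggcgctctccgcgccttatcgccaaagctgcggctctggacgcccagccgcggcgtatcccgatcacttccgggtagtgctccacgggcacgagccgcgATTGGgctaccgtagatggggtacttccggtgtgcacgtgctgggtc
DAD1 chr14:22589225-22589474, minus strand: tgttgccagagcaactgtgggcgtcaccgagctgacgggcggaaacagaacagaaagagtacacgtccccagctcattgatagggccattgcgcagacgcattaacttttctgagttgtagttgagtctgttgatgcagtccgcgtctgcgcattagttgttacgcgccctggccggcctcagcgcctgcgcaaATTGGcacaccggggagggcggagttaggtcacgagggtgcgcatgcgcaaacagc
The capitals show 1 CCAAT in UAP1, 1 in DAD1 and 2 in DDOST, and GFPT1 holds none. Of the measured members not shown, STT3A, called higher in both steps like GFPT1, holds 2 in its window and RPN2 none. UAP1 has 2 more start sites in the table, and their windows hold none. Of all 35116 promoters in the table, 32.0% hold it within the same length. The ER stress element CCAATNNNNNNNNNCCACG, read by ATF6 in the unfolded protein response, was searched on both strands, overlaps the CCAAT box by construction, and was in none of these 4 windows and in 0.074% of all promoters. The androgen receptor half-site AGAACA was in the DAD1 window and in 12.4% of all promoters. A start of UAP1 further downstream has TGACGTG, a core recognised by ATF6 and XBP1, which is in 1.68% of all promoters. The table has windows for 7 of the 8 listed genes, without RPN1. A match is a description of letters, and no match says nothing about a factor.

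UAP1 had the largest androgen difference of the measured members. Its intensity was 3747, 3490 and 3465 on the vehicle arrays, 8740, 8014 and 7969 on the androgen arrays and 7812, 8013 and 7703 on the androgen plus celastrol arrays. The hormone groups lay far above vehicle with no overlap, and the androgen and celastrol arrays ran into each other. UAP1 rose with androgen by 1.21 ± 0.08, or 2.31-fold (adjusted p = 1.85e-05, limma, Benjamini-Hochberg over 22215 probe sets, as for every adjusted p below). With celastrol added the log2 difference from androgen alone was -0.07 ± 0.08 (95% interval -0.25 to 0.11, adjusted p = 0.685). Over the 19 alternative analyses this difference stayed between -0.09 and -0.03 and was never called.

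GFPT1, the first enzyme of the pathway, went up in both steps. Its brighter probe set, 202722_s_at, read 957, 950 and 950 in vehicle, 1613, 1661 and 1613 with androgen, and 2410, 2270 and 2122 with androgen plus celastrol. The 3 groups formed 3 separate levels. It rose by 0.77 ± 0.08 in the androgen step (adjusted p = 0.000236) and by a further 0.48 ± 0.08 in the celastrol step (adjusted p = 0.00414). The second probe set, 202721_s_at, read 556, 584 and 528, then 1135, 1016 and 1072, then 1473, 1461 and 1326. It gave the same order, with rises of 0.95 ± 0.09 (adjusted p = 0.000137) and 0.40 ± 0.09 (adjusted p = 0.0159). The latter call was lost without androgen array 2 (adjusted p = 0.0719) or 3 (0.0578), without androgen plus celastrol array 2 (0.0621), and with the replicate block within the compared groups (0.0653). Against vehicle the combined treatment raised GFPT1 2.38-fold by the first probe set and 2.55-fold by the second.

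**Figure D1:**
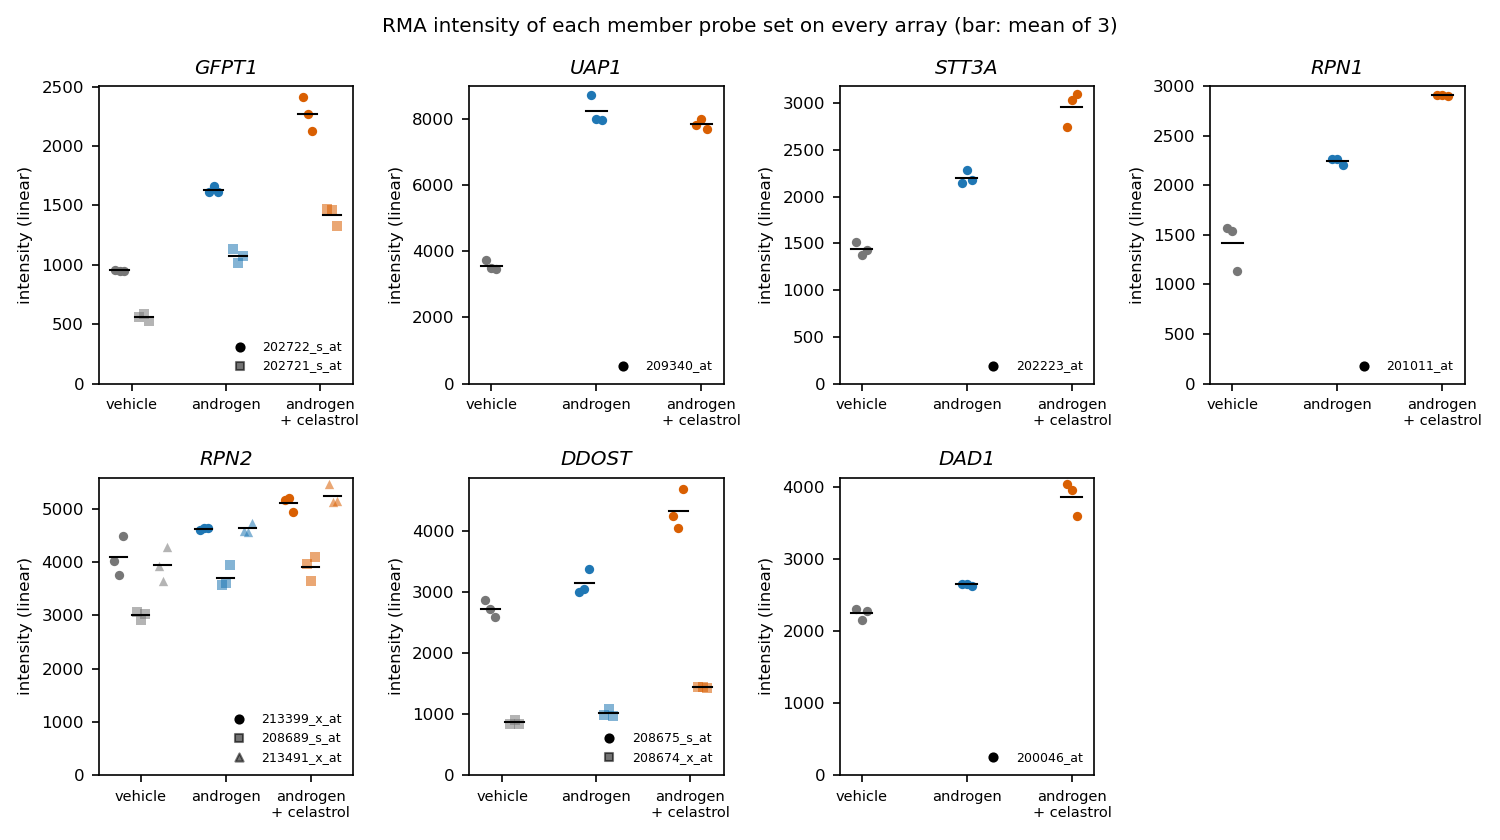
Deposited intensity on a linear axis starting at 0 for the 11 member probe sets, 1 panel per gene, with a point per array, a bar for the mean of 3 arrays, and the brightest probe set of a gene drawn as circles. UAP1 sits at about the same height in both hormone groups, GFPT1, STT3A, RPN1, DDOST and DAD1 climb from group to group without overlap, and the RPN2 levels lie closer together.

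STT3A, which carries the active site, behaved like GFPT1 in direction. Its intensity was 1510, 1379 and 1434 in vehicle, 2142, 2288 and 2179 with androgen, and 2745, 3032 and 3099 with androgen plus celastrol. No array of one group reached the next. The androgen rise was 0.61 ± 0.08 (adjusted p = 0.00144) and the rise in the celastrol step 0.42 ± 0.08 (adjusted p = 0.0104, and 0.0512 with the replicate block within the compared groups). STT3A was 2.05-fold higher than in vehicle over both.

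RPN1, a subunit that binds near the ribosome and passes some membrane proteins to the active site, gave 1564, 1534 and 1140 in vehicle, 2261, 2261 and 2199 with androgen, and 2912, 2912 and 2905 with androgen plus celastrol. Vehicle array 3 was the lowest, and the 3 groups did not overlap. RPN1 rose with androgen by 0.68 ± 0.12 (adjusted p = 0.00637), and without vehicle array 3 by 0.53 (adjusted p = 0.00186). The log2 difference between celastrol and androgen alone was 0.38 ± 0.12 and did not pass (adjusted p = 0.0822). It passed without vehicle array 3 (adjusted p = 0.00491), which enters this comparison through the shared estimate of the spread alone. Against vehicle the combined treatment raised RPN1 2.08-fold.

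RPN2 moved least. Its 3 probe sets include a pair of the _x_at kind, whose probes can match other transcripts. The brightest, 213399_x_at, read 4026, 3765 and 4485 in vehicle, 4610, 4643 and 4636 with androgen, and 5161, 5215 and 4937 with androgen plus celastrol. On this probe set the groups stood apart by small steps, with the highest vehicle array just under the androgen arrays. The log2 difference was 0.18 ± 0.09 for androgen (adjusted p = 0.283) and 0.14 ± 0.09 for the celastrol step (adjusted p = 0.396), neither past the threshold. Over both steps RPN2 rose by 0.32 ± 0.09, or 1.25-fold (adjusted p = 0.0288), a call lost in 11 of 19 alternatives. These include leaving out any array other than vehicle array 3 and androgen array 3, with adjusted p from 0.0517 to 0.0870. The other probe sets, 208689_s_at at 0.38 ± 0.08 and 213491_x_at at 0.41 ± 0.08, passed in that comparison and each lost its call in 1 of 17 alternatives, the replicate block within the compared groups (adjusted p = 0.145 and 0.138). The 2 hormone groups overlapped on 208689_s_at, at 3570, 3604 and 3955 with androgen and 3973, 3656 and 4097 with androgen plus celastrol. Its celastrol step was 0.08 ± 0.08 (adjusted p = 0.681).

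DDOST and DAD1 had the larger difference in the celastrol step. The DDOST probe set 208675_s_at read 2867, 2712 and 2592 in vehicle, 3001, 3038 and 3364 with androgen, and 4239, 4050 and 4677 with androgen plus celastrol. DAD1, a small membrane subunit named as a defender against cell death, read 2309, 2147 and 2283, then 2659, 2659 and 2628, then 4037, 3954 and 3602. In both genes the androgen arrays lay just above vehicle and the celastrol arrays clearly above both. The androgen difference of DDOST was 0.20 ± 0.09 (adjusted p = 0.259) and that of DAD1 0.24 ± 0.08 (adjusted p = 0.107), neither past the threshold. In the celastrol step DAD1 rose by 0.54 ± 0.08 (adjusted p = 0.00239) and DDOST by 0.46 ± 0.09 (adjusted p = 0.0106). The DDOST call was just lost without androgen array 1 (adjusted p = 0.0502) or androgen array 2 (adjusted p = 0.0501). The dimmer DDOST probe set, 208674_x_at, rose by 0.51 ± 0.08 in the celastrol step (adjusted p = 0.00380) and kept its call in each of its 17 alternatives. Against vehicle the combined treatment raised DAD1 1.72-fold and DDOST 1.58-fold.

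**Figure D2:**
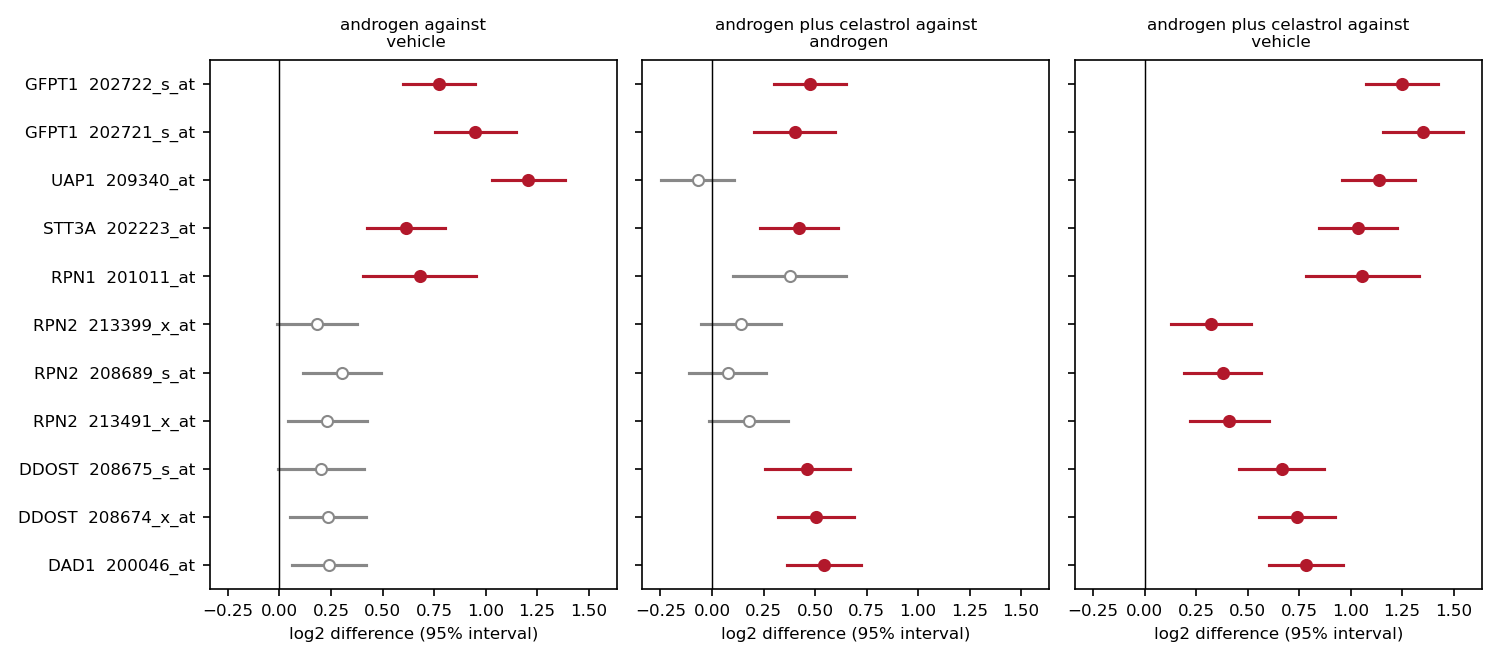
Log2 difference with its 95% interval for each member probe set in the 3 comparisons, filled red where the adjusted p is under 0.05 and open grey otherwise. All 11 probe sets are red against vehicle in the right panel, UAP1 lies at -0.07 in the middle panel, and RPN2, DDOST and DAD1 are grey in the left panel.

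Counted by the brightest probe set of each gene, 4 of 7 members rose with androgen (UAP1, GFPT1, RPN1 and STT3A) and none fell, where 6.71% of all genes rose and 5.35% fell. The members' median log2 difference was 0.61, against -0.04 over all genes. With celastrol over androgen alone 4 of 7 rose (DAD1, GFPT1, DDOST and STT3A) and none fell, where 8.13% of genes rose and 6.6% fell; the medians were 0.42 and 0.02. With the combined treatment over vehicle, in which both groups are labelled 24 h, 7 of 7 rose, where 12.6% of genes rose and 9.3% fell, and the medians were 1.04 and -0.01. All arrays of the first group lay above all of the second in 7, 6 and 7 of the 7 members in these comparisons, against 14.1%, 20.4% and 20.1% of all genes. The 3 comparisons share arrays in pairs and are not independent of each other. In 6 of 7 genes every androgen array lay above every vehicle array and every androgen plus celastrol array above every androgen array, an order found in 3.75% of all genes. UAP1 was the exception.

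That members moved by unequal amounts was examined within arrays, where a ratio of 2 probe sets does not depend on the scaling of the array; these pairs were chosen after the values were seen. The log2 ratio of GFPT1 to UAP1 was -1.97, -1.88 and -1.87 in vehicle, -2.44, -2.27 and -2.30 with androgen, and -1.70, -1.82 and -1.86 with androgen plus celastrol. It was thus lowest with androgen and returned with celastrol to slightly above vehicle. Its change was -0.43 in the androgen step and 0.55 in the celastrol step, with no overlap of groups in either. The log2 ratio of DAD1 to GFPT1 went from 1.24 ± 0.05 (SD, n = 3) in vehicle to 0.70 ± 0.02 with androgen and 0.77 ± 0.03 with androgen plus celastrol. The pair was thus separated by the androgen step and changed nearly in parallel in the celastrol step. The log2 ratio of RPN1 to RPN2 was -1.36, -1.30 and -1.98 in vehicle, -1.03, -1.04 and -1.08 with androgen, and -0.83, -0.84 and -0.77 with androgen plus celastrol. Vehicle array 3 was far below the other two there, and without it the change in the androgen step was 0.28 in place of 0.50. Each of these 9 contrasts gave p = 0.1 in an exact two-sided permutation test, the smallest that 3 against 3 arrays allow, and adjusted p = 0.109 over the 12 contrasts computed.

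**Figure D3:**
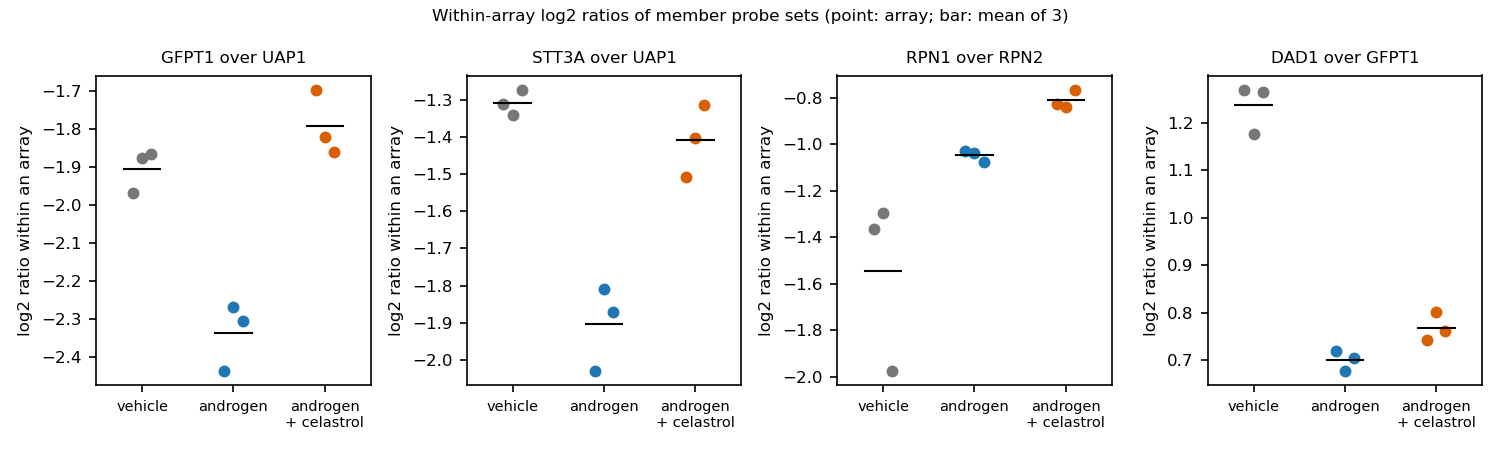
Log2 ratio of the brightest probe sets of 2 genes on the same array, with a point per array and a bar for the mean of 3 arrays. GFPT1 over UAP1 and STT3A over UAP1 dip with androgen and come back with celastrol, RPN1 over RPN2 climbs with vehicle array 3 lowest at -1.98, and DAD1 over GFPT1 drops from 1.24 in vehicle to 0.70 with androgen.

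The genes whose centred log2 values over the 9 arrays were nearest to those of UAP1, among 12158 genes compared, were EFNA5, NSMAF, HERPUD1, SGK3 and ITGAV. Their mean absolute difference from UAP1 was 0.06 to 0.08. They were chosen by closeness to UAP1 on these same arrays, so that similar differences follow from the choice and are no further evidence. The androgen rise was 1.07 in HERPUD1 and more in the other 4, and none passed between celastrol and androgen alone. In that comparison ITGAV stood at -0.24 (adjusted p = 0.0733). Unlike in UAP1, the celastrol arrays of ITGAV and NSMAF lay below the androgen arrays without overlap. HERPUD1 takes part in ER-associated degradation, EFNA5 is an ephrin ligand, SGK3 a kinase and ITGAV an integrin subunit.

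Other genes of amino sugar metabolism rose in part: of 12 measured, 2 with androgen, 3 with celastrol over androgen and 5 with both over vehicle, and none fell (shares among all genes, for this and the lists below: 6.71%, 8.13% and 12.6% higher and 5.35%, 6.6% and 9.3% lower). The androgen risers were NANS and CMAS, 2 genes of sialic acid synthesis, which starts from UDP-GlcNAc. Of the same route, GNE was measured and not called, and NANP was not measured. NANS, the sialic acid synthase, read 1064, 1162 and 819 in vehicle, 2280, 2633 and 2233 with androgen and 1969, 2082 and 2392 with androgen plus celastrol. It rose by 1.24 ± 0.14 (adjusted p = 0.000568) and CMAS, which activates sialic acid, by 0.77 ± 0.10 (adjusted p = 0.000999), while the celastrol step of NANS was -0.15 ± 0.14 (adjusted p = 0.626). Without vehicle array 3 the androgen rise of NANS was 1.095. As in UAP1, the 2 hormone groups of NANS overlapped. The celastrol risers were UAP1L1, a relative of UAP1, AMDHD2, which removes the acetyl group from GlcNAc phosphate, and OGA, which takes O-linked GlcNAc off proteins. UAP1L1 was dim, at 85, 74.4 and 76.7 in vehicle, 85, 66 and 67.7 with androgen and 145, 140 and 161 with androgen plus celastrol, a rise of 1.04 ± 0.12 over androgen alone (adjusted p = 0.000667). AMDHD2 was also dim, with a mean of 64 in androgen and 161.7 in androgen plus celastrol arrays. AMDHD2 rose by 1.28 ± 0.31 (adjusted p = 0.0271) and OGA by 0.48 ± 0.12 (adjusted p = 0.0257), each a call lost in 5 of 19 alternatives. For AMDHD2 these left out any 1 androgen array or androgen plus celastrol array 2 or 3 (adjusted p 0.0681 to 0.0943), and for OGA they include leaving out androgen array 2 or 3 or androgen plus celastrol array 1 or 2 (0.0810 to 0.101). The OGA probe set 200898_s_at was not called for androgen (-0.27 ± 0.12, adjusted p = 0.235), while another, 200899_s_at, fell by 0.57 (adjusted p = 0.00381). In the celastrol step 200899_s_at rose by 0.53 (adjusted p = 0.0053), and a further OGA probe set, 214972_at, was at -0.15 (adjusted p = 0.480).

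Of 3 other measured oligosaccharyltransferase subunits, 1 rose with androgen, none with celastrol over androgen and 2 with both over vehicle, beside 6.71%, 8.13% and 12.6% of all genes. TMEM258, a small subunit common to both forms, read 3665, 3494 and 4084, then 4422, 4311 and 4422, then 5472, 5350 and 5121. Its 3 groups did not overlap, as in the brightest RPN2 probe set, and it rose over both steps by 0.51 ± 0.08 (adjusted p = 0.00282). MAGT1, a subunit of the STT3B form, rose over both steps by 0.63 ± 0.12 (adjusted p = 0.00597). With the replicate block within the compared groups both calls were lost (adjusted p = 0.0957 for TMEM258 and 0.114 for MAGT1). TUSC3, a relative of MAGT1, rose with androgen by 0.50 ± 0.13 (adjusted p = 0.0354, lost in 10 of 19 alternatives, among them the replicate block at 0.0570 and leaving out any 1 androgen array at 0.0984 to 0.118) and was at 0.24 ± 0.13 over vehicle in the combined treatment (adjusted p = 0.239). Without vehicle array 3 its androgen rise was 0.36. The other TUSC3 probe sets were at 0.37 ± 0.10 (209228_x_at, adjusted p = 0.0498) and 0.03 ± 0.19 (209227_at, adjusted p = 0.95) with androgen. In the celastrol step the TUSC3 probe sets lay at -0.26 (213423_x_at), -0.31 (209228_x_at) and -0.36 (209227_at), none past the threshold.

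Of 19 measured enzymes that build the dolichol-linked glycan, 4 rose and 1 fell with androgen, 7 rose and none fell with celastrol over androgen, and 10 rose and 1 fell with both over vehicle, where the list's median was 0.68 and that of all genes -0.01. Among all genes 6.71%, 8.13% and 12.6% rose. GMPPB, which makes GDP-mannose, read 585, 639 and 410 in vehicle, 1236, 1203 and 1224 with androgen and 1544, 1623 and 1614 with androgen plus celastrol. It rose with androgen by 1.19 ± 0.15 (adjusted p = 0.000888). Vehicle array 3 was again the lowest, and without it the rise was 1.00 for GMPPB, 0.74 for GMPPA and 0.38 for DPAGT1. GMPPA, its regulatory partner, rose by 0.96 ± 0.21 with androgen (adjusted p = 0.0184) and by 0.79 ± 0.21 with celastrol (adjusted p = 0.0401), 3.38-fold in all. The first call was lost without androgen array 1 (0.0692) or 2 (0.0821), and the second in 6 of 19 alternatives, each leaving out 1 array. DPAGT1, which puts the first GlcNAc on dolichol, rose with androgen by 0.56 ± 0.14 (adjusted p = 0.0399, lost in 10 of 19 alternatives, among them the replicate block at 0.0593 and leaving out any 1 androgen array at 0.0913 to 0.146). The mannosyltransferase ALG9 rose by 0.96 ± 0.20 with celastrol over androgen (adjusted p = 0.0143) and DHDDS, which makes the dolichol chain, by 0.81 ± 0.22 (adjusted p = 0.0449). ALG9 lost its call without androgen array 2 (0.0503) or 3 (0.0561) or androgen plus celastrol array 2 (0.0538), and DHDDS without any 1 array of these 2 groups or vehicle array 1 (0.0613 to 0.157). The faller was ALG13, which works with ALG14 on the second GlcNAc, at -0.42 ± 0.11 for androgen (adjusted p = 0.0420); it was chosen after its values were seen, and no gene of the list was called lower there with array medians subtracted. ALG5, which makes dolichyl phosphate glucose, was not called for androgen (0.23 ± 0.07, adjusted p = 0.0942) but rose in the celastrol step by 0.55 ± 0.07 (adjusted p = 0.00177), a call kept in all 19 alternatives. ALG8 was not called there (-0.10 ± 0.08, adjusted p = 0.526).

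After transfer, glucosidases, mannosidases and lectins check the folding of the glycoprotein. Of 16 such genes 6 rose with androgen, 4 with celastrol over androgen and 10 with both over vehicle, beside 6.71%, 8.13% and 12.6% of all genes, and 1 fell in the last comparison (UGGT2, chosen after its values were seen, at -0.41 ± 0.12, adjusted p = 0.0450, with no gene of the list called lower once array medians were subtracted). EDEM3 rose with androgen by 1.22 ± 0.16 (adjusted p = 0.000986) and EDEM1 by 0.99 ± 0.10 (adjusted p = 0.000250); both trim mannose on misfolded proteins. LMAN1, the lectin that carries glycoproteins to the Golgi, read 268, 286 and 373 in vehicle, 558, 669 and 738 with androgen and 879, 888 and 891 with androgen plus celastrol. Its 3 groups did not overlap, and it rose 2.89-fold over both steps. The celastrol step did not pass (0.45 ± 0.14, adjusted p = 0.0846), while the second probe set, 203293_s_at, passed there (0.47 ± 0.10, adjusted p = 0.0174). Its partner MCFD2 rose by 0.60 ± 0.09 in the celastrol step (adjusted p = 0.00294), beside EDEM2 (0.53 ± 0.14, adjusted p = 0.0423) and the folding sensor UGGT1 (0.48 ± 0.13, adjusted p = 0.0446), whose calls were lost in 8 and 11 of 19 alternatives. The abundant PDIA3 was not called for androgen (0.27 ± 0.14, adjusted p = 0.327) and rose over both steps by 0.50 ± 0.14 (adjusted p = 0.0315), a call lost in 7 of 19 alternatives, among them leaving out any 1 vehicle array or androgen plus celastrol array 2 or 3. CALR did not pass over both steps (0.28 ± 0.11, adjusted p = 0.114).

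Of 18 Golgi genes 2 rose and 3 fell with androgen, 2 rose with celastrol over androgen, and 5 rose and 4 fell with both over vehicle. Among all genes 6.71% rose and 5.35% fell, 8.13% rose, and 12.6% rose and 9.3% fell. FUT8, which adds the core fucose, read 230, 195 and 249 in vehicle, 77.5, 77.7 and 81.1 with androgen and 73.4, 73.4 and 86 with androgen plus celastrol. Its vehicle arrays lay far above the rest, and with androgen it fell to 0.352 of its vehicle level (adjusted p = 3.64e-05). MAN1A1, a Golgi mannosidase near the bottom of the intensity range, changed by -0.92 ± 0.20 (adjusted p = 0.0176; 0.0607 without vehicle array 1 and 0.0564 without androgen array 1), and its other probe set, 208116_s_at, by -0.32 (adjusted p = 0.123). B4GALT1, which adds galactose, rose by 1.16 ± 0.21 with androgen (adjusted p = 0.00746), with its vehicle arrays at 303, 269 and 161, and by 0.88 without vehicle array 3. Its other probe sets were at 1.25 ± 0.28 (211631_x_at, adjusted p = 0.0229), 0.83 ± 0.30 (216627_s_at, adjusted p = 0.144) and, at the bottom of the intensity range, -0.05 ± 0.20 (201882_x_at, adjusted p = 0.930). The branching enzyme MGAT1 rose over both steps by 1.32 ± 0.26 (adjusted p = 0.00657), by 0.98 without vehicle array 3, and lost its call with the replicate block within the compared groups (adjusted p = 0.0612). MGAT4A rose by 0.80 ± 0.13 in the celastrol step (adjusted p = 0.00386), near the bottom of the range, and MGAT2 by 0.30 ± 0.08 (adjusted p = 0.0400), a call lost in 11 of 19 alternatives. With androgen MGAT2 rose by 0.59 ± 0.08 (adjusted p = 0.00143), a call kept in all 19 alternatives. MGAT4B was called in no comparison, at -0.12 ± 0.09 for androgen (adjusted p = 0.592).

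**Figure D4:**
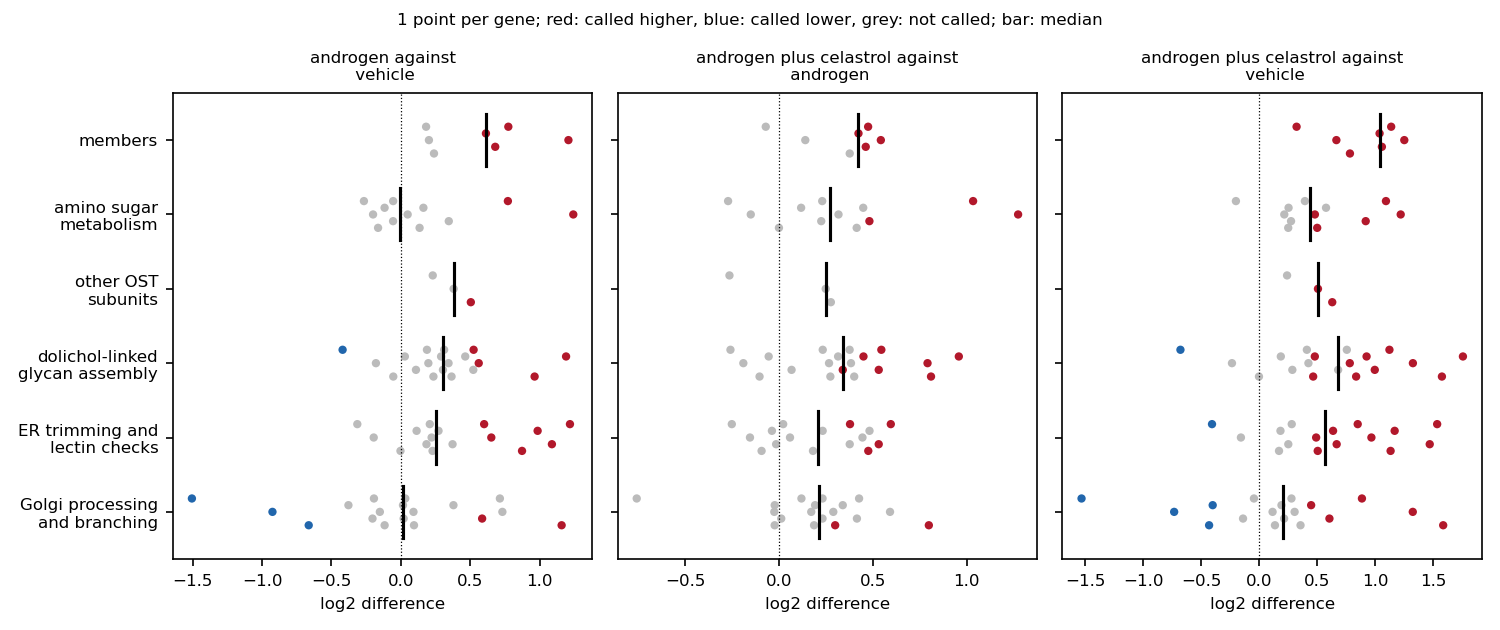
Log2 difference of each gene (1 point, brightest probe set) for the 7 members and the 5 lists of other pathway genes in the 3 comparisons, red where called higher, blue where called lower and grey where not called, with a bar at the median. The members' medians of 0.61, 0.42 and 1.04 lie right of each list's bar, and the calls to the left of 0 are mostly Golgi genes.

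Over the 5 lists, 15 of 68 other pathway genes rose and 4 fell with androgen, 16 rose and none fell with celastrol over androgen, and 32 rose and 6 fell with both over vehicle, beside 6.71% and 5.35%, 8.13% and 6.6%, and 12.6% and 9.3% of all genes. The 4 and 6 that fell lie near the background. The median differences were 0.20, 0.26 and 0.46. The celastrol count of 16, taken here as genes called in either direction, was less steady than the members' count, which stayed at 3 to 5. This count was 6 without androgen array 2 or 3, and 7 without androgen plus celastrol array 1 or 2. It was 9 without androgen array 1 or androgen plus celastrol array 3. Without vehicle array 3 it was 30, of which 1, a Golgi gene, was called lower.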

How the data were processed

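Total RNA of 9 LNCaP cultures was hybridised as biotin-labelled cRNA to Affymetrix arrays, per the labels' protocols. What the authors deposited is a table of linear intensities with a value for every probe set on every array. The submitters' processing notes name RMA, with the version not given in the sources used here. RMA is meant to bring arrays to a common distribution, which removes differences in total RNA. The deposited arrays still differed, with upper quartiles from 332.5 on vehicle array 3 to 408.7 on androgen plus celastrol array 3. Log2 was taken with a pseudocount of 0. One model over 22215 probe sets and 9 arrays was fitted in R 4.3.3 by limma 3.58.1 (group means, eBayes without trend, 6 residual degrees of freedom), with a threshold of 0.05 on the Benjamini-Hochberg adjusted p. Of these, 19724 have 1 gene in the platform annotation, and 19707 of those took their current symbol from the reference table of genes. Genes with several probe sets were counted by the brightest on average. The number of arrays limits the precision.

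Members and gene lists were chosen with earlier results of these data known. From each list the text names, per comparison, up to 3 genes with the largest differences past the threshold and 1 bright gene that did not pass; fewer where they repeat. Deviations from the group means correlated at 0.39, 0.37 and 0.63 between vehicle and androgen arrays of the same replicate number. Among unlike numbers, androgen array 1 correlated at 0.41 with vehicle array 2, and androgen array 2 at 0.3 with vehicle array 1. Unlike pairs that hold an array 3 lay at -0.57 to -0.4. For androgen plus celastrol the correlations at the same number were -0.09, 0.22 and -0.16 with androgen and -0.26, 0.12 and -0.27 with vehicle. It is thus not settled that the numbers mark pairs. The main fit left them out, and the replicate block was used only in alternatives. Promoter windows come from a RefSeq table of GRCh38.p14. Alternatives were another pseudocount, filter, scaling, gene summary, variance model and choice of samples, the replicate block, and leaving out each array.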

Additional observations from a re-analysis of the deposited data

How the results depend on the processing

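Among the member probe sets and the named pathway genes, no called difference changed sign in any of the 19 alternatives. Some alternatives cannot change a difference, so that its sign was fixed there. These include both replicate blocks, the fit on the compared groups alone, eBayes with trend, and leaving out an array of the third group. The members' counts of 4, 4 and 7 called genes stayed at 4 to 5 for androgen against vehicle, 3 to 5 for celastrol over androgen and 5 to 7 for the combined treatment over vehicle; leaving out single arrays gave 4 in every case, 3 to 5 and 6 to 7. With the replicate block the members' counts were 4, 4 and 6, RPN2 losing its call in the last (adjusted p = 0.0605), and within the compared groups 4, 3 and 5, with STT3A at adjusted p = 0.0512, RPN2 at 0.243 and DDOST at 0.0533. The other pathway genes, 19, 16 and 38 called, numbered 16, 13 and 37 with the block over all arrays, and 17, 12 and 15 with the block within the compared groups. Leaving out single arrays gave 12 to 20, 6 to 30 and 31 to 37, and the fit on the compared groups alone gave 27 for celastrol over androgen. The causes of these shifts were not tested. Fewer arrays enter each of these fits, yet the count of 30 was that without vehicle array 3. A vehicle array enters the comparison of celastrol with androgen alone only through the shared estimate of the spread. Subtracting array medians moved the androgen calls over all probe sets from 1341 higher and 992 lower to 1821 and 738, with the members' calls at 4 higher and 0 lower in both. Weak signals such as MAN1A1 and MGAT4A are limited by brightness.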
